A study of Bos taurus with 2 samples.

Results

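The genes described here are those of blood vessels in the bovine muzzle: the endothelium that lines blood vessels, the endothelium of lymphatic vessels, and the mural cells (smooth muscle and pericytes) that wrap the vessel wall. The list held 60 genes taken by name, and a probe was assigned to a gene when its RefSeq accession belonged to that symbol. Probes were found in this way for 47 of the 60 genes, out of 28099 gene names and accessions on the array, and 46 of the 47 gave a ratio between the cows. The other 13 (VWF, FLT1, FLT4, SOX7, SOX17, TAL1, PROX1, STAB1, ICAM2, MMRN2, CSPG4, NOTCH3 and DES2) were not analysed here. The study asked which genes differ between the dark and the light muzzle of HanWoo, the native Korean cattle breed. Total RNA of nose tissue came from 1 light-muzzle cow, whose tissue colour is labelled yellow, and 1 dark-muzzle cow, labelled black. Both were females of 30 months, and the study describes the animals as yellow-coated, raised on 1 farm and sampled at the front of the muzzle. Each RNA was labelled with Cy3 and read on its own Agilent bovine array.

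Endothelial cells form the inner lining of every vessel and are held together by adhesion proteins such as PECAM1. They depend on receptor kinases for vascular endothelial growth factors and angiopoietins, and transcription factors of the ETS and SOX families keep their identity. Lymphatic vessels, which drain tissue fluid, share many of these genes but also carry the hyaluronan receptor LYVE1. Mural cells contract through smooth muscle actin and myosin, and pericytes, which sit on capillaries, are known for the signalling regulator RGS5. Hairless, heavily supplied skin such as the muzzle also holds glands, and striated muscle lies beneath it. Myoepithelial cells around glands and smooth muscle of hair follicles use the same contractile proteins as vessel walls.

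A level below is the log2 of a probe's processed signal minus the log2 of its array's 75th percentile signal, so that a level of 0 equals that percentile. A log2 ratio is the level of the dark muzzle less that of the light muzzle, and a gene's ratio is the mean over its probes whose signal the scanner software marked as well above background on both arrays. Because each colour was represented by a single animal, no test was possible, and every difference is one between 2 cows without a replicate check. Spreads are therefore given between probes of a gene (SD), which had a median of 0.17 over the 30 genes of the list with at least 2 such probes and 0.18 over 7661 genes of the array. The scanner software's own error model gave the log2 ratios of these probes an error with a median of 0.20. These errors do not cover differences between animals. In bulk tissue, more cells of a type and more RNA per cell cannot be told apart.

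The list was covered by 100 probes, of which 95 were well above background in both cows, 3 in the dark muzzle only and 2 in neither. No gene's ratio rested on a lower bound. The blood endothelial markers PECAM1, KDR, TEK, TIE1, EMCN, ESAM, CLEC14A and ERG were each well above background in both cows, as were the smooth muscle markers ACTA2, MYH11, CNN1, TAGLN and LMOD1 and the pericyte marker RGS5. Lymphatic endothelium was represented by LYVE1, PDPN and MMRN1. The epidermal keratins KRT5, KRT14 and KRT10, which mark the labelled tissue, were also well above background in both cows. AQP11, a water channel, did not pass the background filter in the light or the dark muzzle and has no ratio.

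Of the 46 genes with a ratio, 10 (21.7%) were higher in the dark muzzle by 2-fold or more, against 9.34% of the 23161 genes and accessions with a ratio on the array. None of the 46 was at least 2-fold lower, against 7.64% on the array. At 1.5-fold, 18 (39.1%) were higher, against 18.8%. The median log2 ratio of the list was 0.35 and that of all genes 0.017. The 10 genes were LYVE1, ANGPT2, SYNPO2, RGS5, SMTN, PECAM1, LMOD1, ANGPT1, ACTG2 and ESAM. In 6 of them (PECAM1, ESAM, LYVE1, ANGPT2, RGS5 and SYNPO2) every probe measured in both cows was at least 2-fold higher. ESAM (1.02), ACTG2 (1.03), ANGPT1 (1.07) and LMOD1 (1.09) lay just above a log2 ratio of 1, and MMRN1 (0.96) lay just below it.

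**Figure D1:**
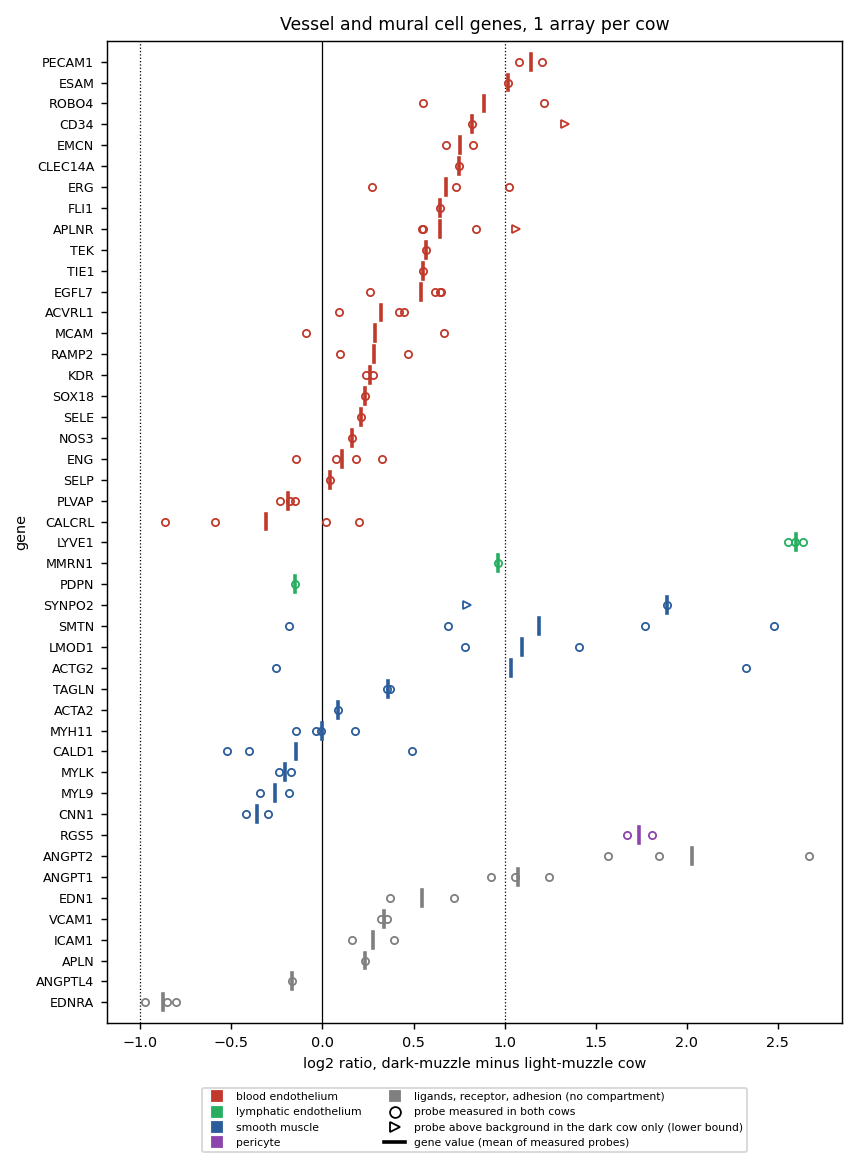
Log2 ratio (x axis, dark-muzzle minus light-muzzle cow) of each of the 46 genes with a ratio (y axis, coloured by compartment). Rings are probes measured in both cows, triangles are lower bounds of probes that passed the background filter in the dark muzzle alone, bars are gene values and dotted lines mark 2-fold. The blood endothelium genes run as a band from -0.31 for CALCRL to 1.14 for PECAM1. Of the smooth muscle genes, 7 have gene values near 0 and 4 above 1, with single probes lying in between.

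Blood endothelium was represented by 23 genes, whose median log2 ratio was 0.54. The ratio was above 0 in 21 of them (91.3%), against 51.2% of all genes, but only PECAM1 and ESAM reached 2-fold. Among the 21, SELP (0.040), ENG (0.11) and NOS3 (0.16) had ratios smaller than the scanner model's median error of 0.20. Of the 46 genes of the whole list, 17 differed by more than 2 such errors on every probe measured in both cows. Counted by probes, 39 of 46 (84.8%) were higher in the dark muzzle, against 50.3% of the probes measured in both cows on the array. The differences were thus small and mostly in the same direction.

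The junction and surface proteins gave the highest ratios of this compartment, with a median of 0.79 over 8 genes. PECAM1, the adhesion protein of endothelial junctions that leukocytes use to cross the vessel wall, had levels of -1.65 and 0.77 for its probes in the light muzzle and of -0.44 and 1.85 in the dark muzzle. Its log2 ratio was 1.14 ± 0.088 (SD, n = 2 probes), or 2.21-fold. ESAM, another junction protein, went from -0.57 to 0.45 on its single probe, a ratio of 1.02. Both probes of PECAM1 and the probe of ESAM exceeded 2-fold. ROBO4, a guidance receptor that stabilizes vessels, had mean levels of -0.83 and 0.054 in the light and dark muzzle. Its ratio was 0.88 ± 0.47 (n = 2 probes), the probes being at 0.55 and 1.22. CD34, a sialomucin of endothelium that stem cells and fibroblasts also carry, had a ratio of 0.82 on 1 probe, from 0.21 to 1.03. Its other probe passed the background filter in the dark muzzle alone and was at least 2.51-fold higher there. CLEC14A, a lectin-like protein of endothelium, moved from 0.95 to 1.70, a ratio of 0.75. EMCN, the mucin of capillaries and veins, moved from a mean level of 0.12 to 0.87, a ratio of 0.75 ± 0.10 (n = 2 probes). These 6 genes were higher in the dark muzzle on every probe.

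MCAM and PLVAP stood apart from these 6 genes. MCAM, which mural cells also carry, had levels of 1.04 and 1.96 in the light muzzle and of 1.71 and 1.87 in the dark muzzle. Its probes thus disagreed, at 0.66 and -0.093, and the ratio of 0.29 turned to -0.093 when only the brightest probe was used. PLVAP forms the diaphragms of fenestrated capillaries and caveolae. Its 3 probes had levels of -1.73, 0.045 and 1.84 in the light muzzle and of -1.88, -0.13 and 1.60 in the dark muzzle. The ratio of PLVAP was -0.19 ± 0.043 (n = 3 probes), so all of its probes were slightly lower in the dark muzzle, by about the error of the scanner model.

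Among the 8 growth factor and peptide receptors measured, the median ratio was 0.30 and none reached 2-fold. TEK and TIE1, the receptor pair of the angiopoietin pathway, were each read on 1 probe. TEK had a level of -0.96 in the light muzzle and of -0.39 in the dark muzzle, a ratio of 0.57, and TIE1 levels of -2.14 and -1.59, a ratio of 0.55. APLNR, the receptor of apelin, had mean levels of -3.44 and -2.80 and a ratio of 0.65 ± 0.17 (n = 3 probes), and its further probe passed that filter in the dark muzzle alone, with a lower bound of 2.09-fold. KDR is the main receptor through which vascular endothelial growth factor drives vessel growth. It had levels of -4.56 and -0.68 in the light muzzle and of -4.28 and -0.44 in the dark muzzle, a ratio of 0.26 ± 0.027 (n = 2 probes). This is close to the error of the scanner model. ACVRL1 and ENG, which together bind ligands of the BMP family, differed little. ACVRL1 had mean levels of 0.14 and 0.46 and a ratio of 0.32 ± 0.20 (n = 3 probes), and ENG mean levels of -1.79 and -1.68 and a ratio of 0.11 ± 0.20 (n = 4 probes). RAMP2 and CALCRL form the receptor for adrenomedullin, which keeps vessels tight and dilates them. RAMP2 had mean levels of 0.82 and 1.10 and a ratio of 0.28 ± 0.27 (n = 2 probes). CALCRL had mean levels of -1.11 and -1.42 and a ratio of -0.31 ± 0.50 (n = 4 probes), with its brightest probe at -0.86 and its dimmest at 0.20.

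Of the secreted products, EGFL7, an endothelial matrix protein, had mean levels of 0.049 and 0.59 in the light and dark muzzle and a ratio of 0.54 ± 0.19 (n = 4 probes), all 4 probes being higher in the dark muzzle. NOS3, the endothelial enzyme that makes nitric oxide, had levels of -1.58 and -1.42, a ratio of 0.16. Among the transcription factors, ERG had mean levels of -2.72 and -2.05 and a ratio of 0.68 ± 0.38 (n = 3 probes). FLI1, of the same ETS family and also made by blood cells, had levels of -0.11 and 0.54 and a ratio of 0.65. SOX18, which acts in vessel and lymphatic development, had levels of 0.14 and 0.38 and a ratio of 0.23. ERG and FLI1 thus had larger ratios than SOX18, which was read on 1 probe. This did not hold for every ETS factor measured. Outside the list, ETS1 was at 0.21 on 1 probe and ETS2 at 1.25 ± 0.23 (n = 3 probes). SELE and SELP, the selectins on which leukocytes roll along the vessel wall, had levels of -0.73 and -0.30 in the light muzzle and of -0.52 and -0.26 in the dark muzzle, with ratios of 0.21 and 0.040. ICAM1 and VCAM1 are adhesion molecules that several cell types display during inflammation. ICAM1 had mean levels of -3.17 and -2.90 and a ratio of 0.28 ± 0.17 (n = 2 probes), and VCAM1 mean levels of -1.92 and -1.58 and a ratio of 0.34 ± 0.021 (n = 2 probes). None of these 4 genes, whose products let leukocytes roll or stop, reached 1.5-fold.

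A further 31 endothelial genes were listed beside the compartment, of which 22 gave a ratio. They were read on the same 2 arrays and chosen with earlier results known, so they are no independent check. The median of the 22 was 0.59, with 19 above 0, against 51.2% of all genes. At least 2-fold higher were 5 of 22, against 9.34%, and 2 of 22 were at least 2-fold lower, against 7.64%. Among the 5 was CAVIN1, at 1.22 ± 1.05 (n = 10 probes), whose probes ran from -0.37 to 2.93. DLL4, a Notch ligand of arteries and sprouting tips, went from -2.34 to -0.57, a ratio of 1.77 on 1 probe. CLDN5, the claudin of endothelial tight junctions, had a ratio of 1.33 ± 0.022 (n = 3 probes). EDNRB, an endothelin receptor that melanocytes also carry, was higher in the dark muzzle by at least 2.49-fold, from a probe that passed the filter there alone. F2R, a thrombin receptor, had the lowest ratio, -1.28 ± 2.49 (n = 3 probes), but its probes ran from -4.15 to 0.22 and give no clear direction. PALMD was at -1.03 ± 0.066 (n = 3 probes). For the VEGF, angiopoietin and PDGF signalling genes outside the list, 9 gave a ratio, with a median of 0.18, and none reached 2-fold in either direction. PDGFRB, the PDGF receptor of mural cells, had probes at -0.99 and 1.03 whose average of 0.019 ± 1.43 (n = 2 probes) gives no direction on these arrays. The paper lists this gene as higher in the dark muzzle by microarray, which is the direction of the probe at 1.03 alone. It reports the same direction by real-time PCR, which covered more cows of each colour. VEGFA, which signals through KDR, was at 0.70 ± 0.073 (n = 3 probes) and VEGFC, which signals to lymphatic endothelium, at -0.43 ± 0.030 (n = 2 probes).

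The lymphatic genes disagreed. LYVE1, the hyaluronan receptor of lymphatic endothelium, had the highest ratio of the whole list. Its 3 probes had levels of -4.64, -4.10 and -2.45 in the light muzzle and of -2.04, -1.46 and 0.10 in the dark muzzle. The ratio was 2.60 ± 0.042 (SD, n = 3 probes), or 6.05-fold, and the probes agreed closely, from 2.56 to 2.64. Under normexp background correction it was 1.89. In signal, the brightest of them read 209 in the light muzzle and 1221 in the dark muzzle. MMRN1, a secreted protein of lymphatic endothelium and platelets, went from -4.95 to -3.99 on its single probe, a ratio of 0.96. PDPN, a surface glycoprotein that keratinocytes and fibroblasts also make, had levels of -3.07 and -3.22, a ratio of -0.15 on 1 probe. The median of the 3 genes was 0.96, but it was 0.44 under normexp background correction. Under every way of processing this median was the value of MMRN1. Its probe was dim, with signals of 37.1 in the light muzzle and 71.8 in the dark muzzle. The light-muzzle level was near the lowest of any detected probe on that array, -5.78.

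LYVE1 is also carried by some macrophages. Of the 8 leukocyte genes with a ratio, 6 were below 0 and none reached 2-fold. They ran from -0.33 for CD14 to 0.73 for CD74, with CD163, CSF1R and CD68 at -0.25, -0.25 and -0.055 and CD3E at 0.29. The part of macrophages in the LYVE1 ratio was not tested. Among further lymphatic genes, CCL21, the chemokine that draws leukocytes into lymphatics, had a ratio of 0.24 ± 0.039 (n = 2 probes), and NR2F2, a venous and lymphatic transcription factor, one of 0.40 ± 0.42 (n = 4 probes). The ratios of MMRN1, PDPN, CCL21 and NR2F2 each lay more than 1.5 log2 units below that of LYVE1.

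ANGPT1 and ANGPT2 differed most among the ligands of the list. ANGPT2, released by endothelium when vessels are remodelled, had levels of -5.67, -4.64 and -3.22 in the light muzzle and of -3.00, -3.07 and -1.37 in the dark muzzle. All 3 probes were higher there, with a ratio of 2.03 ± 0.57 (n = 3 probes), or 4.08-fold, which came down to 1.26 under normexp background correction. Its light-muzzle signals ran from 22.5 to 123, and the level of the dimmest was near the lowest of any detected probe on that array, -5.78. ANGPT1, the ligand with which mural cells quieten endothelium through TEK, had mean levels of -2.24 and -1.17 and a ratio of 1.07 ± 0.16 (n = 3 probes), with probes at 0.92, 1.06 and 1.24. ANGPT4, a further angiopoietin that was not on the list, had levels of -2.07 and -2.14 and a ratio of -0.074 on 1 probe, so the difference did not extend to all measured angiopoietins.

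The other ligands differed less. EDN1, the vasoconstrictor endothelin, had mean levels of -2.44 and -1.89 in the light and dark muzzle and a ratio of 0.55 ± 0.25 (n = 2 probes). APLN, the ligand of APLNR, had levels of -2.36 and -2.12 and a ratio of 0.24. ANGPTL4, an inhibitor of lipoprotein lipase that adipocytes also make, had levels of -0.074 and -0.24 and a ratio of -0.16. EDNRA, the endothelin receptor of smooth muscle and fibroblasts, was the lowest gene of the list. Its probes had levels of -2.48, 0.048 and 0.36 in the light muzzle and of -3.28, -0.92 and -0.50 in the dark muzzle. Each of the 3 was lower in the dark muzzle, with a ratio of -0.88 ± 0.087 (n = 3 probes), which is 1.84-fold lower.

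**Figure D2:**
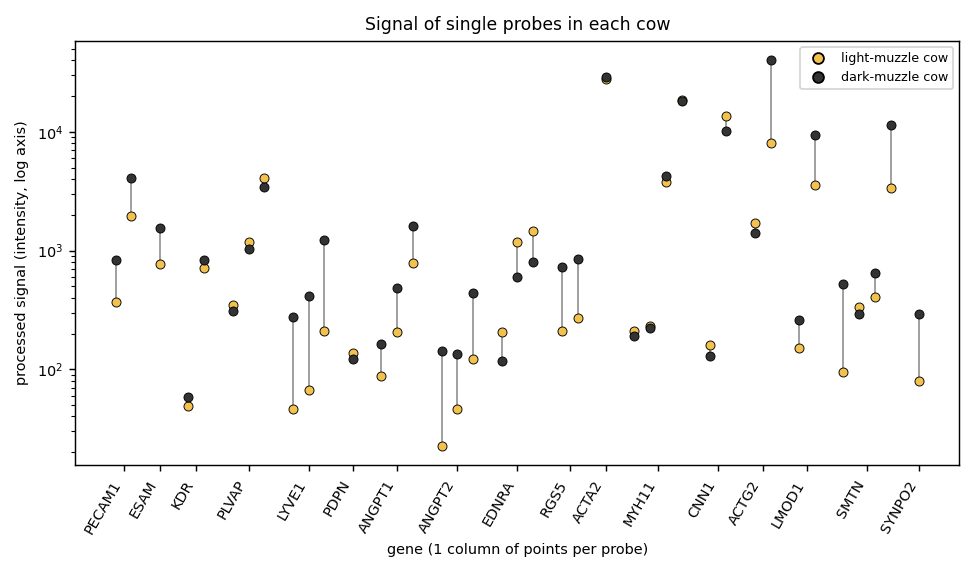
Processed signal (y axis, intensity on a log axis) of single probes of 17 genes (x axis, 1 column of points per probe), in the light muzzle (yellow) and the dark-muzzle cow (dark), for probes well above background in both. The points of every LYVE1, ANGPT1, ANGPT2 and RGS5 probe are separated in the same direction, those of ACTA2 and of the brightest MYH11 probe nearly coincide, and the ACTG2 and SMTN probes disagree among themselves.

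Smooth muscle was represented by 11 genes, with a median log2 ratio of 0.086. Of these, 6 of 11 were above 0, against 51.2% of all genes. At least 2-fold higher were 4 of 11, against 9.34%, and 0 were at least 2-fold lower, against 7.64%. The 7 others lay within 1.5-fold, between -0.36 and 0.36. ACTA2, the smooth muscle actin by which mural cells are usually recognised, had a level of 4.60 in the light muzzle and of 4.68 in the dark muzzle, a ratio of 0.086. Its sign depended on the scaling and turned under quantile normalization, to -0.21. MYH11, the smooth muscle myosin heavy chain, had 4 probes between -0.14 and 0.18 and a ratio of -0.0025 ± 0.13 (n = 4 probes). Its brightest probe read a signal of 18492 in the light muzzle and 18273 in the dark muzzle. These 2 defining genes were therefore at nearly the same level in both muzzles.

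The remaining contractile genes close to 0 leaned either way. TAGLN, an actin-binding protein of smooth muscle, had mean levels of 0.62 and 0.98 in the light and dark muzzle and a ratio of 0.36 ± 0.010 (n = 2 probes). CNN1, the calponin that restrains myosin, had mean levels of 0.37 and 0.014 and a ratio of -0.36 ± 0.085 (n = 2 probes). MYL9 is the regulatory light chain and MYLK the kinase that switches it on. MYL9 had mean levels of 1.51 and 1.25 and a ratio of -0.26 ± 0.11 (n = 2 probes), and MYLK mean levels of 4.23 and 4.03 and a ratio of -0.20 ± 0.046 (n = 2 probes). CALD1, an actin-binding protein that many cells make, had mean levels of 2.36 and 2.21 and a ratio of -0.15 ± 0.56 (n = 3 probes), with 1 probe at 0.49 and the others at -0.41 and -0.52. All probes of CNN1, MYL9 and MYLK were lower in the dark muzzle, by less than 1.5-fold.

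The 4 smooth muscle genes at least 2-fold higher differed in how far their probes agreed. SYNPO2, an actin-bundling protein of smooth muscle that is also found at the Z-discs of striated muscle, went from -3.84 to -1.95 on the probe measured in both cows, a ratio of 1.89. Its dimmer probe passed the background filter in the dark muzzle alone, with levels of -5.53 in the light and -4.74 in the dark muzzle. The lower bound of 1.73-fold is the plain difference of these levels. With dim probes left unfiltered, the log2 ratio of SYNPO2 was 1.34. LMOD1, which nucleates actin filaments, had mean levels of -0.63 and 0.46 and a ratio of 1.09 ± 0.44 (n = 2 probes), with probes at 0.78 and 1.41. SMTN, a protein of actin filaments in contractile smooth muscle, had 4 probes of the same accession, at -0.18, 0.69, 1.77 and 2.48, which gave 1.19 ± 1.18 (n = 4 probes). Its brightest probe read 3382 in the light muzzle and 11488 in the dark muzzle, while the probe at -0.18 read 336 and 294.

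ACTG2, the actin of visceral smooth muscle, was read by 2 probes of the same accession that pointed in opposite directions. The brighter went from a signal of 8107 in the light muzzle to 40324 in the dark muzzle, a ratio of 2.32, and the dimmer from 1692 to 1410, a ratio of -0.25. Their average of 1.03 ± 1.82 (n = 2 probes) therefore rests on the brighter probe. Muscle actins are closely related, and the skeletal muscle actin ACTA1 had a ratio of 2.24 ± 0.61 (n = 4 probes) on the same arrays. Probe sequences were not compared here, and whether the ACTG2 probe also reads ACTA1 was not tested. By probes, 5 of the 25 smooth muscle probes measured in both cows were at least 2-fold higher, against 8.43% of probes on the array, and they belonged to ACTG2, LMOD1, SMTN and SYNPO2.

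For pericytes, RGS5, which dampens signalling by receptors coupled to G proteins, was higher in the dark muzzle on both of its probes. Their levels were -2.45 and -2.08 in the light muzzle and -0.64 and -0.41 in the dark muzzle, and the ratio was 1.74 ± 0.098 (n = 2 probes), or 3.34-fold. RGS5 is the only pericyte gene of the list that was measured, since CSPG4 and NOTCH3 were not analysed here. Of the 26 further smooth muscle and pericyte genes listed, 16 gave a ratio, with a median of 0.35. At least 2-fold higher were 6 of these 16, against 9.34% of all genes. At least 2-fold lower was 1 of 16, against 7.64%, namely ANPEP (-1.84 ± 0.051, n = 3 probes), an aminopeptidase that many epithelia also make. The highest were PLN (3.08 ± 0.029, n = 2 probes), which regulates the calcium pump, TPM1 (2.93 ± 0.18, n = 8 probes) and TPM2 (2.62 ± 0.59, n = 5 probes), the tropomyosins. These 3 genes are also expressed in striated muscle. HIGD1B, a gene known from pericytes, had a ratio of 1.65 on 1 probe, and KCNJ8, a potassium channel subunit of pericytes, one of 0.011.

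Markers of other cell types also differed between the cows, in either direction, as the plot of gene lists shows. On the array, 9.34% of genes were at least 2-fold higher and 7.64% at least 2-fold lower. The 10 skeletal muscle genes with a ratio were all higher in the dark muzzle by 2-fold or more, with a range of 2.24 to 3.50 and a median of 3.01 (TNNT3 and MYH1 both at 3.50). Of 9 serous gland genes, 7 were at least 2-fold lower and 1 at least 2-fold higher, with a median of -2.50 and a lowest value of -6.18 for MSMB, followed by PIP at -4.89. The 6 myoepithelial genes had a median of -0.44, the lowest being OXTR (-0.80) and KRT5 (-0.52). They include ACTA2 and CNN1 of the smooth muscle list and KRT5 and KRT14, which are also keratinocyte genes. OXTR was dim, with levels of -4.04 in the light muzzle and -4.84 in the dark muzzle on 1 probe. All of these genes were well above background in both cows. The part of muscle and gland tissue in the ratios of SYNPO2, SMTN, LMOD1, ACTG2, PECAM1, LYVE1, RGS5 and the angiopoietins was not tested.

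The fibroblast genes had a median of -0.53 over 8 genes, with FAP at -1.04 and THY1 at -0.85. The keratinocyte genes had a median of 0.30 over 6 genes, with 4 above 0 and 2 below. KRT10 was at 1.57 and IVL at 1.26, while KRT5 (-0.52) and KRT14 (-0.41) were lower in the dark muzzle. The leukocyte genes had a median of -0.17 over 8. Over 3 red blood cell genes the median was -0.050. HBA, the abundant one of them at a level of 4.15 in the light muzzle, had a ratio of -0.505, while HBB (-0.050) and SLC4A1 (0.13) lay at light-muzzle levels of -4.66 and -5.40, near the floor of -5.78 for detected probes. Over 2 platelet genes the median was -0.082, from ITGA2B at -0.28 and PF4 at 0.12, the latter also close to background. For adipocytes it was 0.37 over 4 genes, with a lower bound of 1.59 for LEP and -1.48 for CIDEC, and for melanocytes 1.34 over 5, with a lower bound of 3.28 for TYRP1, 1.70 for PMEL and -0.52 for DCT, the only one of the 5 below 0.

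**Figure D3:**
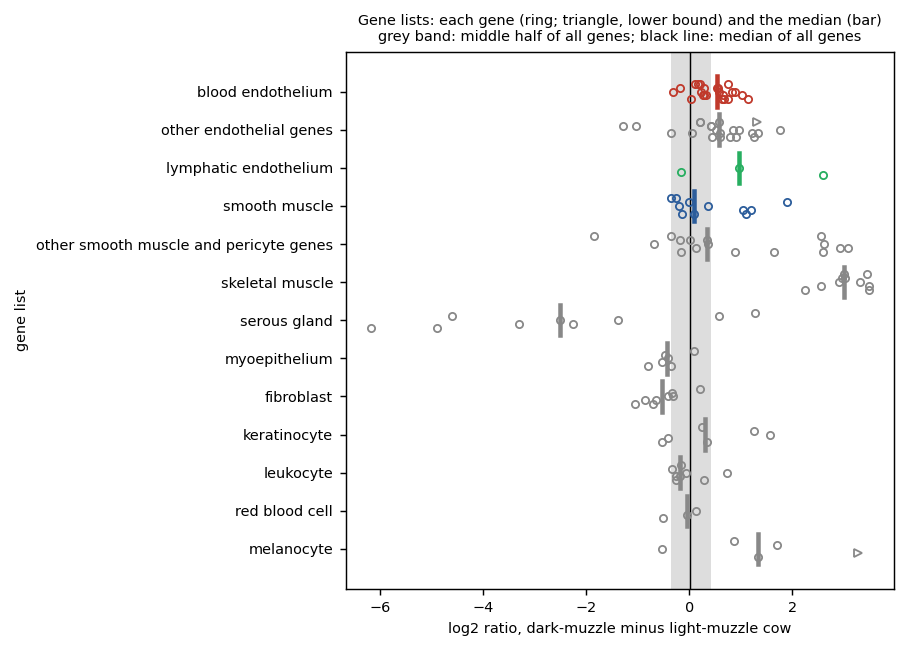
Log2 ratio (x axis, dark-muzzle minus light-muzzle cow) of each gene of 13 lists (y axis), as rings, or triangles for lower bounds, with the median as a bar. The grey band spans the middle 50% of all genes, from -0.36 to 0.43, with their median of 0.017 as a black line. The medians of the blood endothelium genes (0.54) and of the other endothelial genes (0.59) lie right of the band, that of the smooth muscle genes (0.086) inside it, and those of skeletal muscle (3.01) and serous gland (-2.50) far on either side.

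Set side by side, the compartments of the vessel differed in pattern. Blood endothelium had a broad and modest difference, with a median of 0.54 and quartiles of 0.22 and 0.71. Smooth muscle had a median of 0.086 with quartiles of -0.18 and 1.06, and no gene value lay between 0.36 and 1.03. That gap holds for gene means only, since probes of CALD1 (0.49), SMTN (0.69) and LMOD1 (0.78) fell within it. The value of 1.03, that of ACTG2, averages probes at -0.25 and 2.32. The quartiles of all genes were -0.36 and 0.43. The median of blood endothelium stayed above that of smooth muscle under each of 11 other ways of processing, between 0.37 and 0.55 against -0.069 to 0.11. In these, 20 or 21 of its 23 genes had a ratio above 0. Not all of the 11 could change the order of the medians. Other scaling and the deposited table move all of these ratios by 1 constant. Keeping outlier spots, or only probes above background on both arrays, left both medians as reported. With 1 cow per colour, differences due to colour, to the individual cow and to where the muzzle was sampled cannot be told apart.

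**Figure D4:**
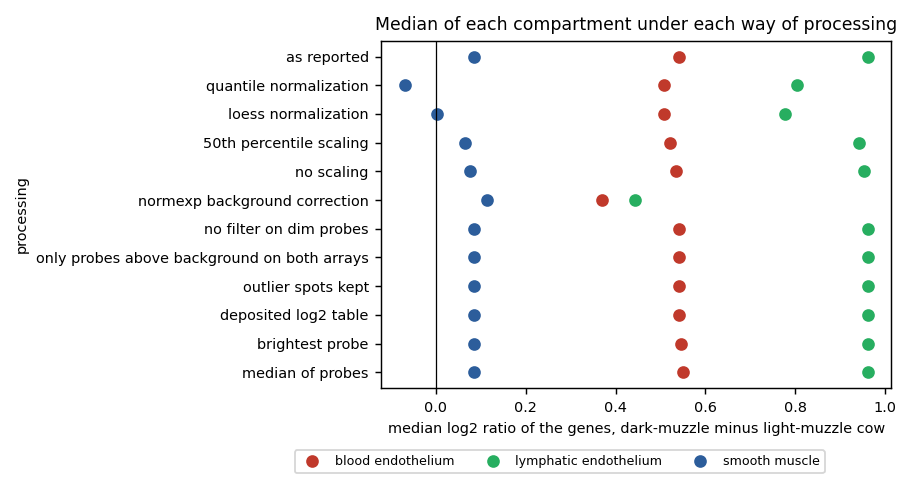
Median log2 ratio (x axis, dark-muzzle minus light-muzzle cow) of the genes of blood endothelium, lymphatic endothelium and smooth muscle under each way of processing (y axis). The blood endothelium median lies between 0.37 and 0.55 throughout and above that of smooth muscle. The lymphatic median, which is the value of MMRN1 among 3 genes, falls from 0.96 to 0.44 under normexp background correction.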

How the data were processed

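Muzzle RNA of each HanWoo cow (1 light, 1 dark) was hybridised to 1-colour arrays of the same slide. The authors deposited the output of Agilent Feature Extraction 10.7.3.1, in which the processed signal is a spot's intensity once background had been subtracted and spatial trends removed. The deposited series table holds log2 values, which equal the log2 processed signal less a constant per array, and it served only as an alternative.

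Control spots and the 13 outlier spots of each array were removed, log2 signals were shifted by the 75th percentile of the 43803 noncontrol spots (intensities of 1144 and 1137), and spots of a probe were averaged. No spot was saturated, and 78.8% and 81.9% of spots were well above background. Symbols came from the RefSeq table of assembly ARS-UCD2.0, matched by accession, for 20587 of 43639 probes. A gene's ratio is the mean over probes above background on both arrays, or else the largest lower bound, in which the bright level is set against the dim probe's level or the lowest level above background on that array, whichever is higher. All genes of the list were accounted for. Genes outside it were named by their place at either end of their list. These were up to 3 past 2-fold in each direction for vascular lists and the 2 farthest from 0 for cell type lists. HIGD1B, KCNJ8, ANGPT4, PDGFRB, VEGFA, VEGFC, CCL21, NR2F2, CAVIN1, ETS1, ETS2, CD3E, DCT, HBB and the macrophage genes were added after their values were seen. So were KRT5 and KRT14 as keratinocyte genes. The genes and lists were chosen with earlier results of these data known. A result that this rule would name is not reported here. No sequences were used here.

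With 1 array per group, no test was made, and precision is limited by how few arrays there are. The spread between probes covers neither animals nor extractions. Counting was tested on simulated data, with effects well past 2-fold in genes with bright probes. That test does not bear on genes close to 2-fold or on dim probes. Alternatives were quantile and loess (span 0.3) normalization, 50th percentile scaling or none, normexp background correction (offset 50, on the median pixel signal), other filters and probe summaries, and thresholds of 1.5-fold and 3-fold. Python 3.11.15, numpy 2.4.6, pandas 2.3.3, R 4.3.3 and limma 3.58.1 were used.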

Additional observations from a re-analysis of the deposited data

How the results depend on the processing

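The count of 10 vessel and mural genes at least 2-fold higher was 18 at a threshold of 1.5-fold and 4 at 3-fold, and that of 0 genes at least 2-fold lower was 1 (EDNRA) at 1.5-fold. The lymphatic median of 0.96, which is the value of MMRN1, was 0.78 under loess and 0.44 under normexp background correction. For blood endothelium, the median of 0.54 ran from 0.37 to 0.55 under the 11 alternatives, with the lowest under normexp. For smooth muscle, the median of 0.086 ran from -0.069 to 0.11, so its sign depended on the processing. Of the 10 genes, 7 stayed at least 2-fold higher under all 11, whereas ESAM and ACTG2 did so under 9 and ANGPT1 under 10, with lowest ratios of 0.95, 0.95 and 0.88. Under normexp, ANGPT2 was 1.26 and LYVE1 1.89, and the cause of these and the lymphatic shifts was not tested. Quantile and loess normalization lowered the share of higher genes among all genes past 2-fold from 55.0% to 46.8% and 46.5%, while the count of 10 vessel and mural genes was 9 under each, and leaving dim probes unfiltered raised that share to 65.0%. Over all genes, 2164 were at least 2-fold higher and 1770 lower as reported, 1252 and 1030 under normexp and 3892 and 2092 without the filter on dim probes. The alternative by a gene symbol column was not run, since the scanner files used here carry accessions only, and a slide block could not be fitted. No paired analysis was possible because each group has 1 array.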
